A study of Mus musculus with 5 samples.

Results

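Foregut of C57BL/6J mouse embryos at embryonic day 8.5 (E8.5) was set against medial foregut of the same strain and stage, with 1 poly(A) RNA-seq library on each side. The comparison takes in every locus of the deposited expression table that carries a gene name, which is 12375 of 14053 loci, and 2 of the 5 libraries of the series. The other libraries are liver, ventral pancreas and dorsal pancreas of C57BL/6J embryos at E10.5, and they are used here for the later levels of the same genes. The labels name no mutation, transgene or treatment in any of these samples. What was cut away to obtain medial foregut, how many embryos were pooled and whether cells were sorted is stated in none of the sources used here.

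Levels are in FPKM, fragments per kilobase of transcript scaled to the number of mapped fragments. A difference is log2((foregut FPKM + 1)/(medial foregut FPKM + 1)), positive where the foregut value is the larger one, and the added 1 understates the change of genes at low levels. A locus was counted as higher or lower in foregut when this difference was at least 1 in size, that is 2 times on the FPKM + 1 scale, and when the larger value was at least 5 FPKM. With 1 library a side there is no replicate, so the error of a difference is unknown, nothing was tested, and every value describes these libraries alone. In bulk tissue, fewer cells of a type and less RNA per cell cannot be told apart.

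At E8.5 the foregut is a pocket of endodermal epithelium at the front end of the gut tube. The forming heart and its progenitors lie against its ventral wall, and the notochord, the neural tube and the somites lie along its dorsal side, with neural crest cells leaving the neural tube nearby. FGF from cardiac mesoderm and BMP from neighbouring mesenchyme are known to help turn ventral foregut endoderm towards liver. Retinoic acid, made in paraxial mesoderm, gives the posterior foregut, the hindbrain and the spinal cord their position along the axis, and Hedgehog ligand from notochord and floor plate patterns the ventral neural tube. The genes below are therefore grouped by the tissue or pathway they are known for, and a group is described by its counts beside the counts over all loci.

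The foregut and medial foregut libraries were close to each other across the table. Of the 12375 named loci, 58 were counted higher in foregut (0.469%) and 34 lower (0.275%), 92 in all (0.743%). Among the 8120 loci with at least 5 FPKM in the larger of the E8.5 values, 75.2% differed by less than 1.2 times, 93.9% by less than 1.5 times and 98.9% by less than 2 times on the FPKM + 1 scale, and 6 loci passed 4 times. The loci counted were 1.13% of these 8120, with 0.714% higher and 0.419% lower. Across the named loci Pearson's r of log2(FPKM + 1) was 0.99, a coefficient across genes, which are not independent replicates. Depth in reads is unknown. Loci at 1 FPKM or more numbered 10637 in foregut and 10633 in medial foregut, and 29 named loci were listed at 0 in each. The summed FPKM of the table was 456635 in foregut and 506529 in medial foregut. When both libraries were rescaled to a common total of 1000000, the median difference of all loci at a mean of 1 FPKM moved by 0.14. The counts became 161 higher and 33 lower, so the share of higher loci was 83.0% in place of 63.0%. A common total taken over loci of at least 1000 bp gave 154 higher and 57 lower, a higher share of 73.0%. Both rescalings raised the values of both libraries, while the added 1 and the floor of 5 stayed the same. These counts therefore do not reflect the scaling between the libraries alone. With a floor of 20 FPKM in place of 5 the balance turned, at 12 higher and 19 lower.

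**Figure D1:**
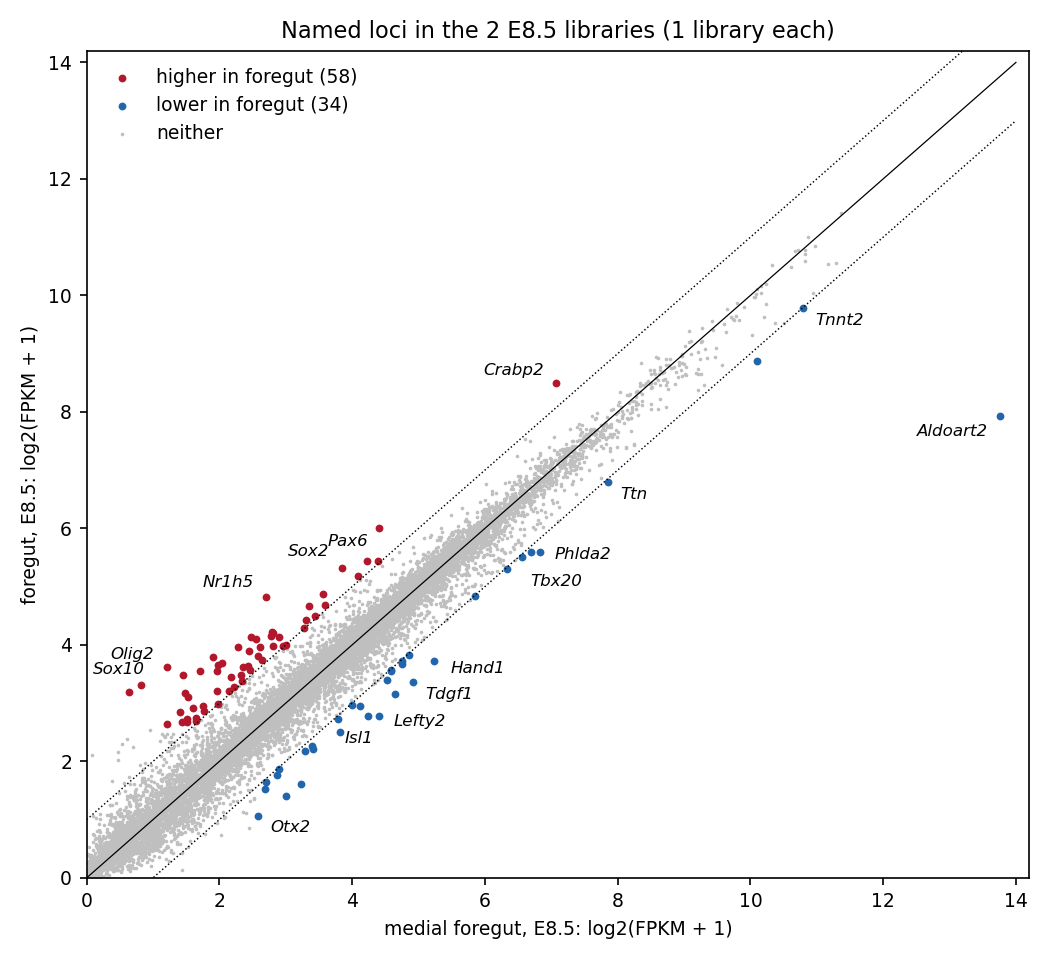
Each named locus is plotted by log2(FPKM + 1) in foregut (vertical axis) and in medial foregut (horizontal axis), 1 library each. Dotted lines mark a difference of 1; the 58 loci counted higher in foregut lie above the upper line and the 34 counted lower lie below the lower line, with Aldoart2 far from the rest.

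Genes of the contractile apparatus of heart muscle were among the most abundant transcripts in both libraries, and their values were smaller in foregut than in medial foregut throughout. All 26 measured members of the cardiomyocyte list had a negative difference (a member is measured when its mean over both libraries is at least 1 FPKM), where 49.5% of the 10648 measured loci of the table did. Their median difference was -0.72, against 0.00 over all measured loci. Of these members 2 were counted lower, against 0.319% of measured loci, and none was counted higher, against 0.545%. At the looser size of 1.5 times, 20 of 26 were lower and none was higher, against 2.88% and 1.78% of measured loci. The same shares stand beside the counts of every list that follows. The summed level of the list was 7309 FPKM in foregut and 12208 FPKM in medial foregut.

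Tnnt2, which encodes cardiac troponin T (mm9 chromosome 1, 137732249 to 137748826), stood at 875 FPKM in foregut, against 1764 FPKM in medial foregut, a difference of -1.01. Ttn, the gene of the giant sarcomere spring titin, stood at 109.6 FPKM in foregut, against 231 FPKM in medial foregut, although its locus in the table covers 3.64% of the annotated gene. These are the 2 members past the size threshold, and with rescaling to a common total neither passed it, at -0.92 for Ttn and -0.86 for Tnnt2. With a common total over loci of at least 1000 bp Ttn passed it, at -1.01, and Tnnt2 did not, at -0.95. Below it, Myl7, for the atrial myosin light chain, had 1049 FPKM in foregut and 1959 FPKM in medial foregut (-0.90). Actc1, for cardiac alpha-actin, had 1487 FPKM in foregut and 2297 FPKM in medial foregut (-0.63). The smallest gap of the list was that of the calcium pump gene Atp2a2, with 275.5 FPKM in foregut, against 329.6 FPKM in medial foregut (-0.26). Among the 12097 named loci that span at least 1000 bp, Actc1 ranked 7 by level in foregut and 2 in medial foregut, and Myl7 ranked 13 in foregut and 3 in medial foregut. The epithelial gene Epcam, by comparison, ranked 1520 in foregut and 1500 in medial foregut.

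Because the differences of these muscle genes had 1 sign, their promoters were searched for the CArG box, the 10-base motif bound by serum response factor, a regulator of muscle actin and myosin genes. The search covered both strands of the RefSeq promoter window (250 bases before to 50 after the gene start, GRCm38.p6), and the motif overlaps no other motif searched. At least 1 match was found in 5 of the 23 cardiomyocyte genes with a promoter in the table (Actc1, Ldb3, Myl3, Myl7 and Nebl), which is 21.7%, against 1.81% of all 27025 genes in the table. Counted over promoters, of which a gene can have several, it was in 6 of 32 for the cardiomyocyte list and in 4 of 23 for the neural tube list, all 4 of them of Egr2, which is 1 of 13 genes with an entry on that list. Among the heart field factors it was in 1 of 16 genes. None of the 31 higher or 23 lower genes with a promoter entry held it. A match is a description of these letters and not evidence of binding. The 150 bases before the start of 3 of these genes, whose products are a sarcomeric actin and myosin light chains, are shown 5′ to 3′ with the match in capitals. They lie on GRCm38.p6 at chr2:114052876-114053025, minus strand (Actc1), chr11:5898783-5898932, minus strand (Myl7), and chr9:110763528-110763677, plus strand (Myl3), and the match lies 47 to 38, 61 to 52 and 85 to 76 bases before the start in that order.
Actc1: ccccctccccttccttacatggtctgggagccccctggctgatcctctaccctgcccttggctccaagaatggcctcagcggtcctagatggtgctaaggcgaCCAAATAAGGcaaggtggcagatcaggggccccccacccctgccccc
Myl7: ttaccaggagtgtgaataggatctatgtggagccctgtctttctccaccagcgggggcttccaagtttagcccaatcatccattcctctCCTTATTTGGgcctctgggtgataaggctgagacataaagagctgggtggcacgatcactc
Myl3: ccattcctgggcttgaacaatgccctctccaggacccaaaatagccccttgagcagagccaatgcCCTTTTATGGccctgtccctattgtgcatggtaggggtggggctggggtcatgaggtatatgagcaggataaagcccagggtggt
Myl3, for a ventricular and slow-muscle myosin light chain, stood at 116 FPKM in foregut, against 215 FPKM in medial foregut (-0.89).

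Among regulators of the heart fields, the progenitor regions of the heart, 5 of 24 measured members were counted lower in foregut, against 0.319% of measured loci, none was counted higher and 19 were neither. A negative difference was found for 23 of the 24, and the median was -0.78. Hand1, a basic helix-loop-helix factor of cardiac and lateral mesoderm (mm9 chromosome 11, 57642209 to 57646150), had 12.2 FPKM in foregut and 36.5 FPKM in medial foregut, a difference of -1.51. Isl1, a LIM homeodomain factor of the second heart field that foregut endoderm also expresses, had 5.88 FPKM in foregut and 17.8 FPKM in medial foregut (-1.45). The T-box gene Tbx20 stood at 44.6 FPKM in foregut, against 93.3 FPKM in medial foregut (-1.05, or -0.91 with a common total, which ends the call). Hand2, the relative of Hand1, had 9.58 FPKM in foregut and 22.0 FPKM in medial foregut (-1.12), at a locus whose strand in the table is opposite to that of the annotated gene. Each of these genes was detected in both libraries, so the difference is one of degree. The cardiac homeobox gene Nkx2-5 fell short of the threshold, with 10.3 FPKM in foregut and 20.7 FPKM in medial foregut (-0.94), as did Gata4, with 46.6 FPKM in foregut and 78.0 FPKM in medial foregut (-0.73), and Gata6, with 25.7 FPKM in foregut and 41.1 FPKM in medial foregut (-0.65). Both GATA factors act in cardiac mesoderm and in endoderm.

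Genes of the mesenchyme around the gut and of blood vessels had mostly negative differences too. All 18 measured members of the splanchnic and gut mesenchyme list had a negative difference, with a median of -0.72 and a summed level of 1093 FPKM in foregut and 1720 FPKM in medial foregut. The 2 counted lower, against 0.319% of measured loci, were Hand1 and Hand2, which the heart list also holds. Acta2, for smooth muscle actin, which early heart muscle also expresses, stood at 635 FPKM in foregut and 1042 FPKM in medial foregut (-0.71). Pdgfra, a receptor of mesenchyme, stood at 24.2 FPKM in foregut and 41.7 FPKM in medial foregut (-0.76). Of 20 measured endothelial genes 18 had a negative difference and the median was -0.31. The member counted lower was the apelin receptor gene Aplnr, with 11.8 FPKM in foregut and 26.0 FPKM in medial foregut (-1.08). Its locus lies on the other strand and overlaps Lrrc55. The difference of Aplnr was -0.96 with a common total, and -1.06 with a common total over loci of at least 1000 bp. The endothelial cadherin gene Cdh5 had 20.2 FPKM in foregut and 27.8 FPKM in medial foregut (-0.44). Leukocyte genes were near 0: of 6 found, C1qb, C1qc and Cx3cr1 were listed at 0 in both libraries, and the list summed to 2.54 FPKM in foregut and 3.18 FPKM in medial foregut. The erythroid list summed to 32.5 FPKM in foregut and 35.7 FPKM in medial foregut, of which Car2, for a carbonic anhydrase that other tissues express as well, made up 25.2 FPKM in foregut and 25.4 FPKM in medial foregut.

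**Figure D2:**
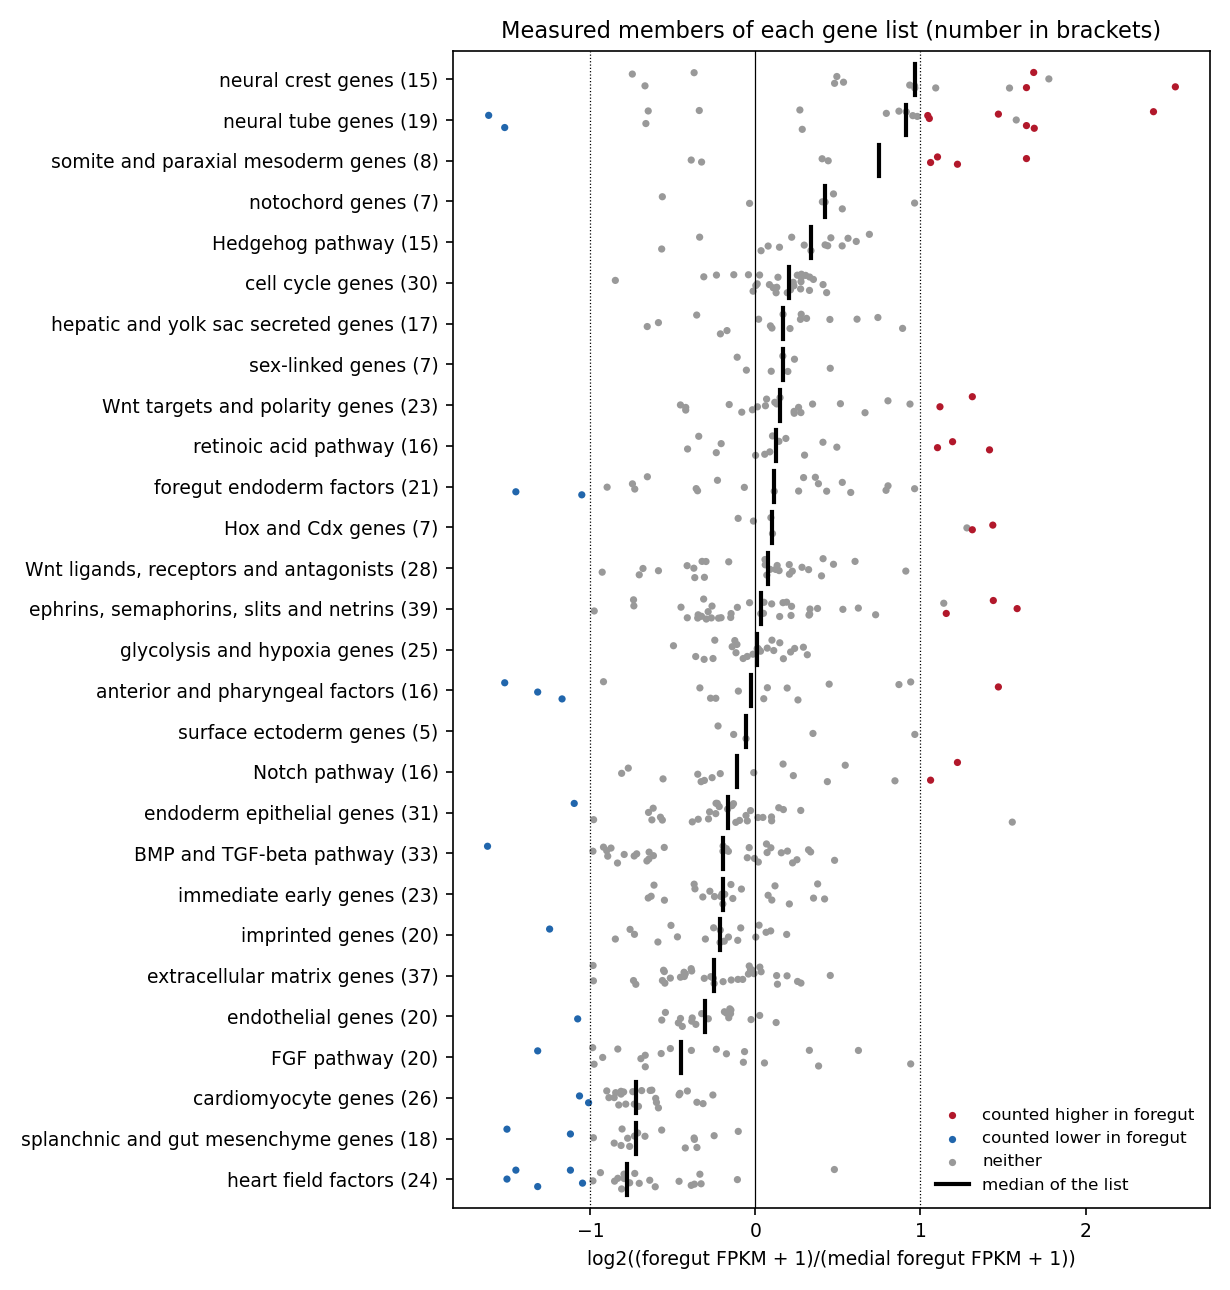
Each point is a measured member of a gene list, placed by its difference, log2((foregut FPKM + 1)/(medial foregut FPKM + 1)), and the black bar is the list's median. Lists of the neural crest, neural tube and somites have their medians right of 0, up to 0.96, and heart, mesenchyme and FGF lists left of it, down to -0.78; points past a dotted line but in grey stayed under 5 FPKM.

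On the other side, genes of the neural tube had mostly positive differences. Of 41 listed genes 21 had a locus of their own and 19 were measured. Of these 19 members 14 had a positive difference, where 50.5% of measured loci did, and the median was 0.91. Among them 6 were counted higher and 2 lower, against 0.545% and 0.319% of measured loci. At 1.5 times, 11 were higher and 2 lower, against 1.78% and 2.88%. The summed level was 354 FPKM in foregut and 215 FPKM in medial foregut. Olig2, a factor of motor neuron progenitors (mm9 chromosome 16, 91225566 to 91228924), stood at 11.3 FPKM in foregut, against 1.31 FPKM in medial foregut, a difference of 2.41. Nkx6-1, a homeobox gene of the ventral neural tube that later marks pancreatic progenitors, stood at 7.98 FPKM in foregut, against 1.78 FPKM in medial foregut (1.69). Pax3, of the dorsal neural tube, neural crest and somites, stood at 11.8 FPKM in foregut, against 3.11 FPKM in medial foregut (1.64). These genes thus include factors of both the ventral and the dorsal neural tube.

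Sox2, which keeps neural progenitors undifferentiated and is also expressed in anterior foregut endoderm, had 38.9 FPKM in foregut and 13.4 FPKM in medial foregut (1.47). Its locus in the table spans the noncoding gene Sox2ot, itself at 5.20 FPKM in foregut and 1.302 FPKM in medial foregut, and reads of overlapping genes cannot be told apart here. Pax6, chosen for the text after its values were seen, had 42.6 FPKM in foregut and 20.0 FPKM in medial foregut (1.05), at a locus that overlaps Elp4. Outside the list, some genes known from the neural tube stood among the 15 highest differences. They were picked from that ranking after their values were seen, so their high values are given by the choice. Msx3, a homeobox gene of the dorsal neural tube, had 12.8 FPKM in foregut and 2.73 FPKM in medial foregut (1.89). Rfx4, a factor needed for dorsal midline brain structures, had 16.2 FPKM in foregut and 4.85 FPKM in medial foregut (1.56). Nell2, a secreted neuronal glycoprotein, had 11.6 FPKM in foregut and 2.93 FPKM in medial foregut (1.69). The axon guidance genes split: of 39 measured ephrins, semaphorins, slits, netrins and their receptors 20 had a positive and 19 a negative difference, and the median was 0.03. The 3 counted higher were Slit1, a repellent of the neural midline, with 10.7 FPKM in foregut and 2.91 FPKM in medial foregut (1.59), the floor plate attractant gene Ntn1, with 13.8 FPKM in foregut and 4.46 FPKM in medial foregut (1.44), and Sema5b, with 10.1 FPKM in foregut and 3.997 FPKM in medial foregut (1.16).

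The largest positive difference of the whole comparison belonged to Sox10, the defining transcription factor of migrating neural crest (mm9 chromosome 15, 78985337 to 78994913), at 8.10 FPKM in foregut, against 0.560 FPKM in medial foregut, a difference of 2.54. Of 25 listed neural crest genes 16 had a locus of their own and 15 were measured. Of these 15, 12 had a positive difference and the median was 0.96. Among them 3 were counted higher, against 0.545% of measured loci, and none lower. Besides Sox10 and Pax3, the third was Ednrb, the endothelin receptor that crest cells need to colonise gut and skin, at 14.7 FPKM in foregut, against 3.87 FPKM in medial foregut (1.69). Foxd3, an early crest factor, reached 4.22 FPKM in foregut, against 0.524 FPKM in medial foregut (1.78), at a locus of opposite strand, and was not counted because it stayed under 5 FPKM. The 3 members with negative differences, Snai2, Twist1 and Prrx1, are genes that other mesenchyme expresses as well. Snai2, for example, had 3.67 FPKM in foregut and 6.83 FPKM in medial foregut (-0.75).

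Some genes that mark position along the head-to-tail axis were also higher in foregut, although few could be measured. Many Hox genes share a joined locus in the table: of 33 listed Hox, Cdx and cofactor genes 11 had a locus of their own, 13 appeared within a joined name and 7 were measured. Of those 7, 2 were counted higher, against 0.545% of measured loci, and none lower. The median of the 7 was 0.10, with 5 positive and 2 negative differences. Hoxc4 had 6.17 FPKM in foregut and 1.65 FPKM in medial foregut (1.44). Cdx1, a caudal-type factor that acts on Hox genes and answers to Wnt and retinoic acid, had 6.55 FPKM in foregut and 2.04 FPKM in medial foregut (1.31). The joined locus of Hoxd3 and Hoxd4 stood at 62.9 FPKM in foregut, against 20.1 FPKM in medial foregut (1.60). The joined locus of Hoxb2, Hoxb3 and Hoxb4 stood at 14.9 FPKM in foregut, against 6.73 FPKM in medial foregut (1.04), while a separate Hoxb3 locus stood at 22.8 FPKM in foregut and 23.0 FPKM in medial foregut (-0.01). By contrast Hoxb1, a gene of the hindbrain and posterior foregut, stood at 9.03 FPKM in foregut and 8.34 FPKM in medial foregut (0.10), and Cdx2, of the hindgut, at 1.08 FPKM in foregut and 0.456 FPKM in medial foregut.

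Paraxial mesoderm and retinoic acid genes showed a partial shift. Of 25 listed somite genes 13 had a locus of their own and 8 were measured. Of these 8, 4 were counted higher, against 0.545% of measured loci, and none lower, and the median was 0.75. These 4 were Aldh1a2, Pax3, Dll1 and Lfng, and each of them is also on another list. Aldh1a2, the main enzyme that makes retinoic acid in the embryo, had 35.4 FPKM in foregut and 16.0 FPKM in medial foregut (1.10). Crabp2, which carries retinoic acid to its nuclear receptors, had 359.7 FPKM in foregut and 134 FPKM in medial foregut (1.42), the most abundant of the 58 higher genes. Of the 16 measured genes of the retinoic acid pathway 3 were counted higher, none lower and 12 had a positive difference, but the median was 0.12. The third gene counted, Nr2f1, has a locus on the strand opposite to its annotation. The receptors moved little: Rara stood at 17.7 FPKM in foregut and 16.6 FPKM in medial foregut, and Rarb at 23.0 FPKM in foregut and 20.8 FPKM in medial foregut. The Notch ligand gene Dll1 had 13.0 FPKM in foregut and 4.99 FPKM in medial foregut (1.22). The Notch-modifying enzyme gene Lfng had 21.7 FPKM in foregut and 9.86 FPKM in medial foregut (1.06). Dll1 and Lfng also act in the neural tube. They were the 2 of 16 measured Notch pathway genes counted higher. The median of that pathway was -0.11, which turned to 0.03 with rescaling to a common total.

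**Figure D3:**
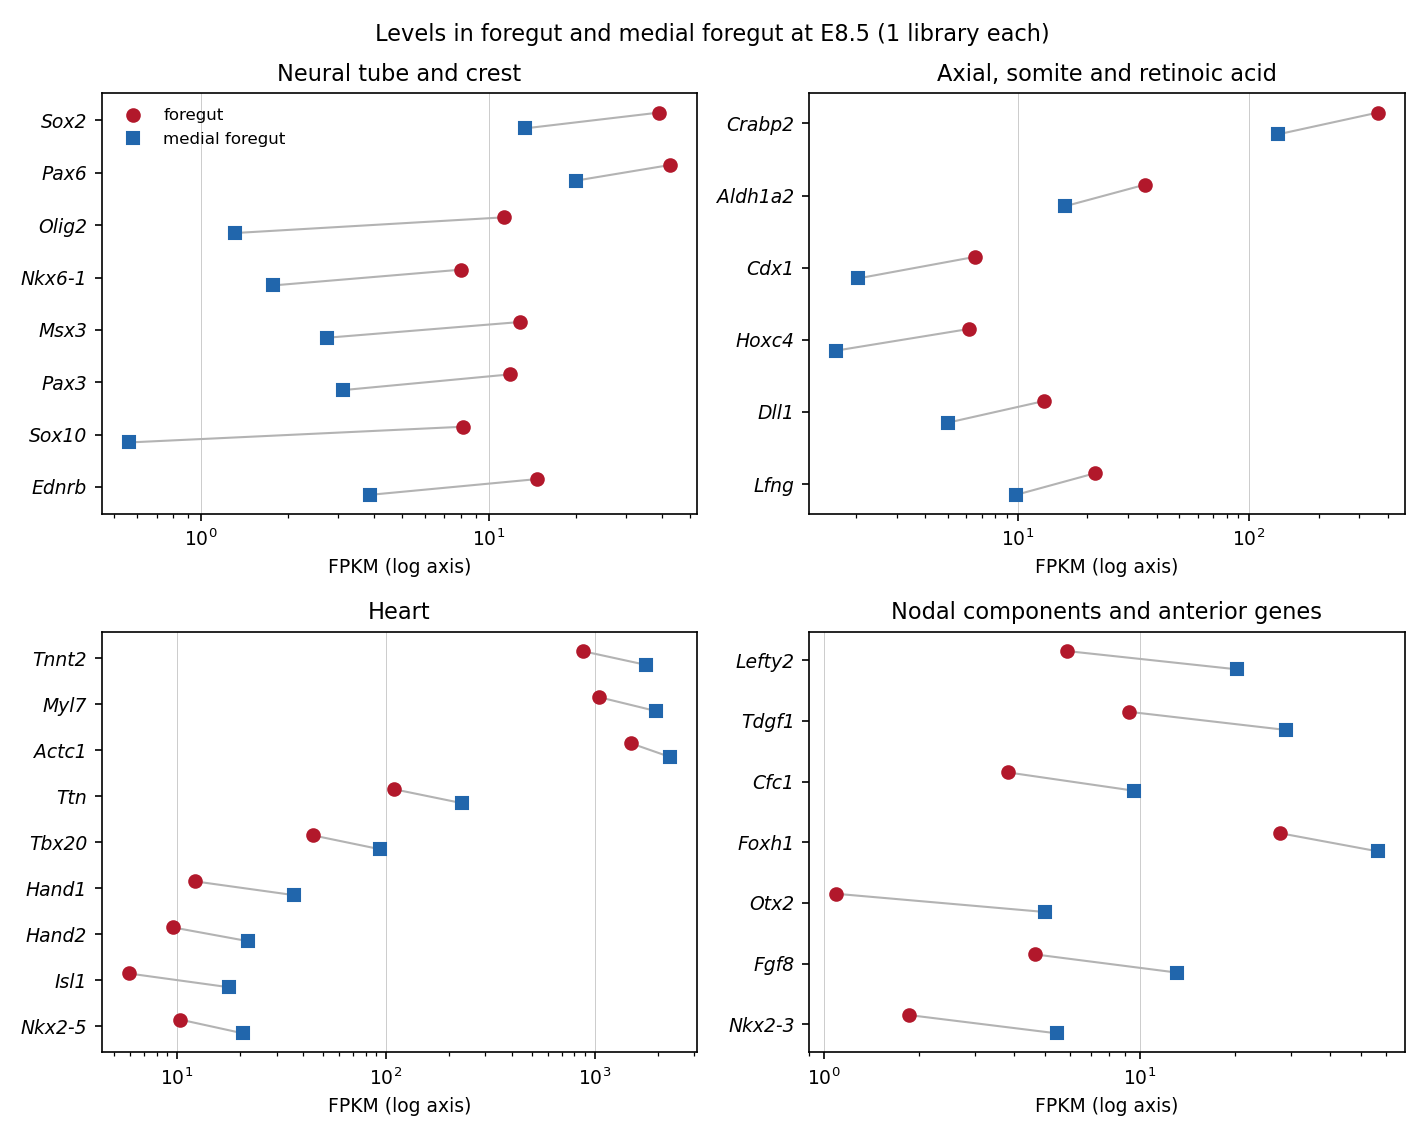
FPKM of named genes on log axes, with a red circle for foregut and a blue square for medial foregut, 1 library each. Neural, crest, axial and retinoic acid genes have the circle on the right, and heart, Nodal and anterior genes have it on the left, with Sox10 and Olig2 showing the widest gaps.

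Some of the genes lower in foregut are known from the front end of the embryo. The list of anterior and pharyngeal factors was mixed, with 8 positive and 8 negative differences among 16 measured members, 1 counted higher (Sox2) and 3 lower; its median was -0.03 and turned to 0.11 with rescaling to a common total. Otx2, which marks forebrain, midbrain and the most anterior endoderm, had 1.09 FPKM in foregut and 5.00 FPKM in medial foregut (-1.52). Nkx2-3, a homeobox gene of pharyngeal endoderm and gut mesenchyme, had 1.87 FPKM in foregut and 5.46 FPKM in medial foregut (-1.17). Otx2 is also on the neural tube list, which thus holds members on both sides. Tbx1, the T-box gene of the pharynx, did not pass the threshold, at 6.89 FPKM in foregut and 8.96 FPKM in medial foregut (-0.34).

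Lefty2, Tdgf1, Cfc1 and Foxh1 belong to Nodal signalling, which sets the left-right axis at about this stage. They were grouped after their values were seen, from loci already counted lower, so their shared direction is given by the choice. Lefty2, a secreted Nodal antagonist expressed in left lateral mesoderm, had 5.90 FPKM in foregut and 20.3 FPKM in medial foregut (-1.62). The Nodal coreceptor gene Tdgf1, for Cripto, had 9.22 FPKM in foregut and 29.1 FPKM in medial foregut (-1.56). Cfc1, for the coreceptor Cryptic, had 3.83 FPKM in foregut and 9.55 FPKM in medial foregut (-1.13). Foxh1, the DNA-binding partner of the Smad proteins, had 27.7 FPKM in foregut and 56.6 FPKM in medial foregut (-1.01, or -0.87 with a common total, which ends the call), at a locus that overlaps Cyhr1. All 4 were below 1 FPKM in the E10.5 libraries.

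Among signalling pathways, FGF genes leaned to lower values in foregut. Of 20 measured members 15 had a negative difference and the median was -0.45. Among them 1 was counted lower, against 0.319% of measured loci, and none higher. At 1.5 times 7 were lower and 2 higher, against 2.88% and 1.78% of measured loci. The largest positive difference of the list was 0.94. Fgf8, a ligand of the second heart field, pharynx and brain, had 4.67 FPKM in foregut and 13.2 FPKM in medial foregut (-1.32). Some genes switched on by FGF signalling lay just under the threshold on the lower side. Etv5 had 9.59 FPKM in foregut and 19.9 FPKM in medial foregut (-0.98). Spry2, an inhibitor of the pathway, had 7.68 FPKM in foregut and 15.5 FPKM in medial foregut (-0.93). Receptors did not share this: Fgfr1 stood at 47.8 FPKM in foregut and 50.1 FPKM in medial foregut, and Fgfr4 at 14.9 FPKM in foregut and 9.29 FPKM in medial foregut. Fgf10 cannot be judged, since its locus covers 0.741% of the annotated gene.

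BMP and TGF-beta genes had the same lean in ligands and feedback genes. Of 33 measured members 22 had a negative difference, 1 (Lefty2) was counted lower, against 0.319% of measured loci, and the median was -0.20, or -0.06 with a common total. At 1.5 times 13 were lower, against 2.88%, and none higher. The ligand gene Bmp4 stood at 10.04 FPKM in foregut, against 20.8 FPKM in medial foregut (-0.98), and Bmp2 at 14.7 FPKM in foregut, against 28.1 FPKM in medial foregut (-0.89). Smad6, an inhibitor that BMP signalling induces, stood at 22.1 FPKM in foregut, against 42.2 FPKM in medial foregut (-0.90). The receptor gene Bmpr1a was near equal, at 40.4 FPKM in foregut and 39.9 FPKM in medial foregut.

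Hedgehog genes leaned the other way without passing the threshold: 13 of 15 measured members had a positive difference, none was counted, and the median was 0.34. The ligand gene Shh had 10.2 FPKM in foregut and 7.35 FPKM in medial foregut (0.42). Ptch1 and Gli1, which Hedgehog signalling switches on, stood at 75.4 FPKM in foregut and 52.1 FPKM in medial foregut (0.53), and at 22.8 FPKM in foregut and 15.1 FPKM in medial foregut (0.56). Genes of the notochord, a source of Hedgehog ligand, had 5 of 7 measured members positive, none counted and a median of 0.42. That median is the difference of Shh, which is on this list too. The summed level of the notochord list went the other way, at 320 FPKM in foregut and 430 FPKM in medial foregut. Wnt ligands, receptors and antagonists had a median of 0.08 over 28 measured members with none counted. Wnt targets and polarity genes had 2 of 23 counted higher, Cdx1 and Celsr2, an atypical cadherin of planar polarity, with 10.9 FPKM in foregut and 4.48 FPKM in medial foregut (1.12). The Wnt target Axin2 stood at 12.6 FPKM in foregut and 6.12 FPKM in medial foregut (0.94).

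Factors of the endoderm, which gives both samples their name, were detected in both libraries and differed in both directions. Of 21 measured foregut endoderm factors 11 had a positive and 10 a negative difference, with a median of 0.11 and a summed level of 256 FPKM in foregut and 345 FPKM in medial foregut. At 1.5 times 6 were lower and 1 higher, against 2.88% and 1.78% of measured loci. The lower ones include the GATA factors, which cardiac mesoderm also expresses, among them Gata5, with 31.8 FPKM in foregut and 60.1 FPKM in medial foregut (-0.90), and the T-box gene Tbx3, with 9.35 FPKM in foregut and 16.3 FPKM in medial foregut (-0.75). The one higher was Sox9, with 9.17 FPKM in foregut and 4.21 FPKM in medial foregut (0.96), at a locus that overlaps BC006965. The 2 counted lower at 2 times were Isl1 and Prdm1, a transcriptional repressor, with 2.14 FPKM in foregut and 5.52 FPKM in medial foregut (-1.05). The pioneer factors of endoderm were close: Foxa2 stood at 18.2 FPKM in foregut and 12.4 FPKM in medial foregut (0.53), and Foxa1 at 20.2 FPKM in foregut and 18.6 FPKM in medial foregut (0.11). Hhex, needed for the liver bud and ventral pancreas, stood at 45.7 FPKM in foregut and 58.5 FPKM in medial foregut (-0.35). Lower in level were Hnf4a, a hepatocyte regulator, with 3.30 FPKM in foregut and 2.30 FPKM in medial foregut, Foxa3, with 3.14 FPKM in foregut and 2.38 FPKM in medial foregut, Sox17, an early endoderm factor, with 2.58 FPKM in foregut and 3.20 FPKM in medial foregut, and Prox1, of the liver and pancreas buds, with 2.41 FPKM in foregut and 1.65 FPKM in medial foregut at a locus of opposite strand. None of these was past the threshold. Genes of the later liver and pancreas were barely detected, with Alb at 0.226 FPKM in foregut and 0.0231 FPKM in medial foregut, and Pdx1 at 0.945 FPKM in foregut and 0.444 FPKM in medial foregut. Both libraries thus hold endoderm markers beside abundant cardiac RNA, and the part of the unequal heart and neural lists in these differences was not tested.

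Epithelial genes leaned to lower values in foregut, with differences from -1.10 to 1.56 and 8 of 31 measured members positive. The member at 1.56 was not counted because it stayed under 5 FPKM. Epcam stood at 45.6 FPKM in foregut and 46.5 FPKM in medial foregut (-0.03), and Cdh1, for E-cadherin, at 18.5 FPKM in foregut and 20.2 FPKM in medial foregut (-0.12), and both differences turned positive with a common total. Of 31 measured endoderm epithelial genes 23 had a negative difference, the median was -0.17, and the summed level was 1155 FPKM in foregut and 1619 FPKM in medial foregut. At 1.5 times 4 were lower and none higher, against 2.88% and 1.78% of measured loci. The abundant keratin genes were among those with negative differences, Krt18 with 270.3 FPKM in foregut and 424 FPKM in medial foregut (-0.65), and Krt8 with 263 FPKM in foregut and 389 FPKM in medial foregut (-0.56). Spink3, for a secreted trypsin inhibitor, had 68.8 FPKM in foregut and 137 FPKM in medial foregut (-0.98). The member counted at 2 times was the gut peptide gene Pyy, with 47.6 FPKM in foregut and 103 FPKM in medial foregut (-1.10). The difference of Pyy was -0.96 with a common total, which ends the call, and -1.05 with a common total over loci of at least 1000 bp. Genes for proteins secreted by liver and yolk sac had none of 17 counted and a median of 0.17. Outside these 17, the joined locus of Serpina1a, Serpina1b and Serpina1e was counted higher. It had 9.89 FPKM in foregut and 3.53 FPKM in medial foregut (1.27), and was not matched to the list because its name is joined.

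Among the 15 highest and 15 lowest differences were genes outside these groups. Nr1h5, for a nuclear receptor of the farnesoid X receptor family, had 27.1 FPKM in foregut and 5.50 FPKM in medial foregut (2.11). Vit, for a matrix protein, had 10.2 FPKM in foregut and 1.75 FPKM in medial foregut (2.03). Scube2, whose secreted product helps release Hedgehog ligand, had 10.7 FPKM in foregut and 2.28 FPKM in medial foregut (1.84). Uckl1 had 8.98 FPKM in foregut and 0.769 FPKM in medial foregut (2.50), at a locus without a strand. It overlaps joined loci that also carry the name Uckl1, with Gm16119 and with Znf512b, and reads of overlapping loci cannot be told apart here. Apba2, for an adaptor protein of neurons, had 16.5 FPKM in foregut and 4.59 FPKM in medial foregut (1.65), and Bai1, for an adhesion receptor of brain, had 7.61 FPKM in foregut and 1.89 FPKM in medial foregut (1.58). On the lower side, Ahnak, for a large scaffold protein, had 7.93 FPKM in foregut and 24.1 FPKM in medial foregut (-1.49), and Rgs5, of pericytes, had 6.72 FPKM in foregut and 16.3 FPKM in medial foregut (-1.17). Mybph, for a myosin-binding protein, had 1.66 FPKM in foregut and 7.01 FPKM in medial foregut (-1.59), at a locus that overlaps Adora1. The locus of the smooth muscle microRNA gene Mir145 had 3.61 FPKM in foregut and 9.67 FPKM in medial foregut (-1.21). Phlda2, an imprinted growth-restraining gene of placenta, had 47.2 FPKM in foregut and 113 FPKM in medial foregut (-1.25). D130009I18Rik, a locus of 278 bp without a strand, had 469 FPKM in foregut and 1100.4 FPKM in medial foregut (-1.23). The widest gap of all, -5.83, was that of Aldoart2, at 244 FPKM in foregut and 13929.7 FPKM in medial foregut. Its locus spans 103 bp, 6.21% of the annotated gene, and its parent gene Aldoa stood at 1034 FPKM in foregut and 1089 FPKM in medial foregut, so reads of near-identical copies may be split between them.

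At the size threshold the values changed gradually. Just inside it on the higher side were Nrcam, a neuronal adhesion gene, with 18.5 FPKM in foregut and 8.70 FPKM in medial foregut (1.01), and Uevld, with 15.1 FPKM in foregut and 6.98 FPKM in medial foregut (1.01), the last with a locus of 16.3% of its annotated span. Just outside were Cenpv, with 8.78 FPKM in foregut and 3.90 FPKM in medial foregut (0.997), and Dpysl4, with 6.93 FPKM in foregut and 2.99 FPKM in medial foregut (0.990). On the lower side Tnnt2 and Foxh1 were the nearest inside. Just outside were Capn6, with 26.4 FPKM in foregut and 53.9 FPKM in medial foregut (-0.99993), and the muscle splicing gene Rbm24, with 43.1 FPKM in foregut and 86.8 FPKM in medial foregut (-0.993).

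Many of the genes that differed at E8.5 were low in the organ primordia of E10.5. None of the liver, ventral pancreas and dorsal pancreas libraries reached 5 FPKM for 28 of the 58 higher genes (48.3%) and 17 of the 34 lower genes, against 3.83% of the 8120 loci that reached 5 FPKM at E8.5. These sets were not matched in level. In foregut the median was 11.7 FPKM for the higher and 8.58 FPKM for the lower genes, against 17.7 FPKM for the 8120 loci. In medial foregut it was 4.08 FPKM, 22.5 FPKM and 17.8 FPKM in that order. Sox10 stood at 0.112 FPKM in liver, 0.679 FPKM in ventral pancreas and 0.497 FPKM in dorsal pancreas. Tnnt2 kept 102 FPKM in liver, with 4.23 FPKM in ventral pancreas and 0.388 FPKM in dorsal pancreas. The counted genes were chosen for a gap between their E8.5 values. The larger of these values is thus harder to exceed by the rule itself, and the next shares are not like for like. An E10.5 library stood above both E8.5 libraries for 19 of the 58 higher genes (32.8%) and 7 of the 34 lower genes (20.6%), against 68.2% of those 8120 loci. Isl1, lower in foregut, was among them, at 0.318 FPKM in liver, 13.3 FPKM in ventral pancreas and 104 FPKM in dorsal pancreas. Nkx6-1, higher in foregut, stood at 0.0138 FPKM in liver, 7.05 FPKM in ventral pancreas and 13.1 FPKM in dorsal pancreas. Pyy reached 1.93 FPKM in liver, 167 FPKM in ventral pancreas and 722 FPKM in dorsal pancreas.

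**Figure D4:**
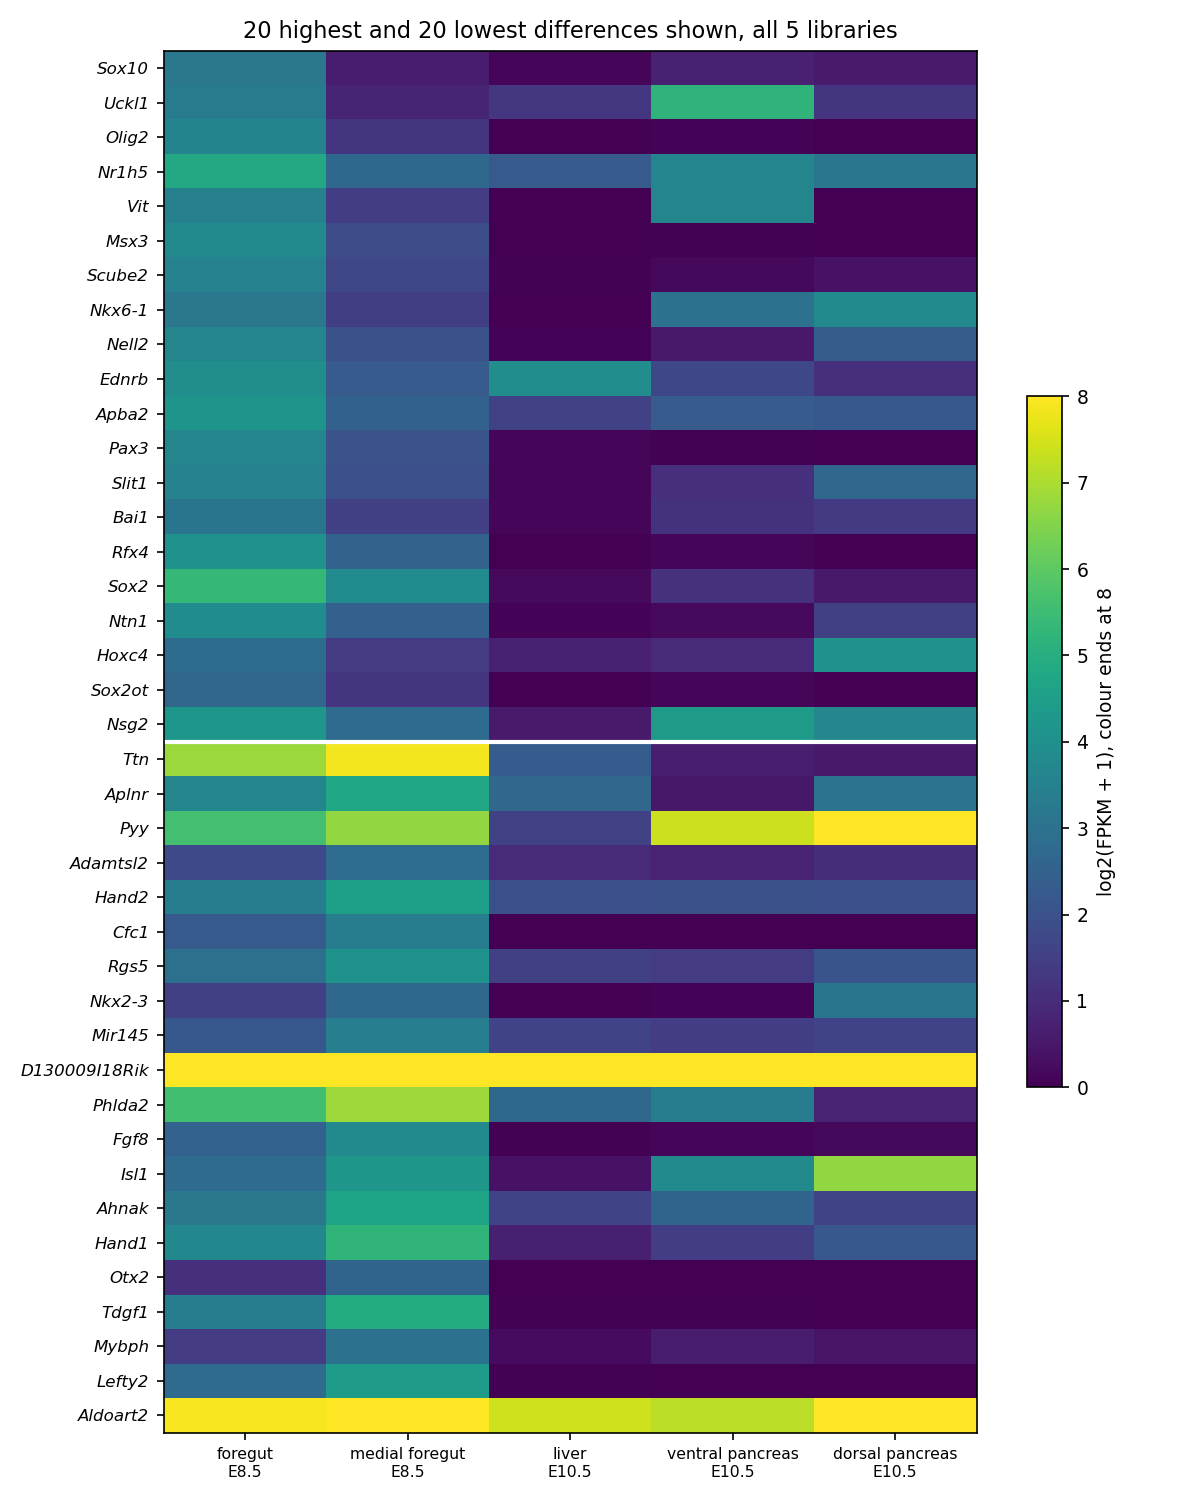
Colour gives log2(FPKM + 1), capped at 8, in the 2 E8.5 and 3 E10.5 libraries for 20 of the highest and 20 of the lowest differences, with the highest at the top and a white line between them. Most rows are darker in the E10.5 libraries, as for Olig2 and Lefty2, while Pyy and Isl1 are brighter in dorsal pancreas.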

How the data were processed

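Poly(A) RNA was sequenced as random-primed paired-end libraries on an Illumina HiSeq, per the labels' protocols, and no strand marking is described. The authors deposited 1 table of FPKM values and no source used here states how libraries were scaled. Per the submitters' processing notes the tools were TopHat 1.33 and Cufflinks 1.3.0 and the build was mm9, with no role or order recorded. Coordinates are those of the table.

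Unnamed loci (1678) were left out. Of the 12375 named loci, 731 carry joined names and 187 have no strand. Of the 92 loci counted, 13 overlap another named locus, 7 are joined, 3 lie on the other strand than annotated and 8 cover under 30% of the annotated span (GENCODE M21, GRCm38, used for names, strand and span). The table holds no read counts, so depth and counting intervals are not given.

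Differences were computed with Python 3.11.15 and pandas 2.3.3 at a pseudocount of 1 FPKM. Each of 31 gene lists was matched by exact symbol or synonym. The members and the lists were chosen with earlier results of these data known, and list counts are description only. Named genes are the 15 highest and 15 lowest counted loci with 1 name, up to 4 counted members of each list, the loci nearest the threshold and a set of lineage genes; further list members are named as examples chosen after their values were seen. Nkx2-1 and Cyp26a1 are not analysed here, and a few other genes that meet the naming rule are left out of the text and the plots of named genes. Alternatives were other pseudocounts, floors, size limits and scalings, and leaving out loci of uncertain annotation. Promoters are from RefSeq (GRCm38.p6).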

Additional observations from a re-analysis of the deposited data

How the results depend on the processing

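The counts of higher and lower genes depended on the settings. None of the 92 counted loci changed sign under the 5 pseudocounts and scalings tried for each of them, but this says nothing of their stability. A pseudocount cannot change a sign. The common total moved the median difference of all measured loci to 0.14, which is small beside the size limit of 1. Of the named genes not counted, Epcam and Cdh1 turned positive with a common total, at 0.12 and 0.02. Against 58 higher and 34 lower, adding 0.1 FPKM in place of 1 before the log gave 86 and 55, and adding 5 FPKM gave 20 and 11. A floor of 20 FPKM gave 12 and 19, a size of 4 times gave 5 and 1, and rescaling to a common total gave 161 and 33. Rescaling raised the values of both libraries but kept the added 1 and the floor of 5, so both weighed less there. With a common total 13 of the 92 calls were lost, among them Tnnt2, Ttn, Tbx20, Pyy, Foxh1 and Aplnr, and adding 5 FPKM lost 61. A common total over loci of at least 1000 bp, chosen after seeing the data, gave 154 and 57 and lost 5 calls, among them Tnnt2, Tbx20 and Foxh1. Leaving out the floor, median-ratio rescaling, and leaving out overlapping, short, joined or partly covered loci kept both counts within 1.5 times. Of 75 named genes 50 were counted, and 25 were with a pseudocount of 5 FPKM. Of 28 lists with at least 5 measured members, the anterior and pharyngeal, surface ectoderm and Notch medians turned from negative to positive with a common total, at 0.11, 0.09 and 0.03. Without read counts or a second library per tissue, the error of any value is unknown. No paired analysis was possible because each group has 1 library.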

Other observations

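Growth-related imprinted genes lay mostly on the lower side in foregut. Of 20 measured imprinted genes 15 had a negative difference, 1 (Phlda2) was counted lower and the median was -0.21, or -0.07 with a common total. H19, a noncoding RNA, stood at 1499 FPKM in foregut and 2492 FPKM in medial foregut (-0.73), and its neighbour Igf2, a fetal growth factor, at 448 FPKM in foregut and 759 FPKM in medial foregut (-0.76). Cdkn1c, a cell cycle inhibitor, stood at 349.8 FPKM in foregut and 631 FPKM in medial foregut (-0.85). Other imprinted genes were near equal, such as Grb10, at 383 FPKM in foregut and 382 FPKM in medial foregut.

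Cell cycle genes leaned slightly to the higher side by number. Of 30 measured members 24 had a positive difference, none was counted and the median was 0.20. Differences ranged from -0.85 to 0.43, and at 1.5 times 1 member was lower and none higher. The summed level of the list went the other way, at 2306 FPKM in foregut and 2376 FPKM in medial foregut. Mcm7, for a subunit of the replicative helicase, had 64.5 FPKM in foregut and 47.5 FPKM in medial foregut (0.43). Extracellular matrix genes leaned to the lower side, with 29 of 37 negative, none counted and a median of -0.25; Has2, for hyaluronan synthase, had 15.9 FPKM in foregut and 32.3 FPKM in medial foregut (-0.98). Glycolysis and hypoxia genes had a median of 0.01 over 25 measured members, and immediate early genes a median of -0.20 over 23, with none counted in either list.

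Lists that describe what else the samples could hold showed little difference. Surface ectoderm had a median of -0.06 over 5 measured members, and 4 erythroid and 3 histone genes were measured, with none counted in any of these lists. Transcripts from the inactive X and from the Y chromosome were detected in both libraries: Xist stood at 58.4 FPKM in foregut and 49.4 FPKM in medial foregut, and the Y-linked gene Eif2s3y at 15.7 FPKM in foregut and 17.0 FPKM in medial foregut.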
